A study of Mus musculus with 26 samples.

Results

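Ribosomal protein genes encode the protein subunits of the cytosolic ribosome, Rpl genes those of the large subunit and Rps genes those of the small subunit. They are among the most highly transcribed genes of dividing cells, they are short, many carry small nucleolar RNAs in their introns, and processed copies of their mRNAs are scattered over the genome. 5-hydroxymethylcytosine (5hmC) is the oxidation product of 5-methylcytosine that Tet dioxygenases make, in DNA and in RNA. Here the peaks of RNA 5hmC that fall in these genes are described.

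The genes were chosen by name: protein-coding genes called Rpl or Rps and a number, with or without a closing letter, plus Rplp0, Rplp1, Rplp2 and Rpsa, but not the Rps6k kinases. The rule found 81 genes among 22380 protein-coding genes of the annotation, 49 of the large subunit and 32 of the small subunit. A peak belonged to a gene when its summit, the point of highest enrichment, lay between the gene's annotated ends. Of the 81 genes, 41 held at least 1 peak in at least 1 library (50.6%, against 32.2% of all coding genes) and 40 held none in any.

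RNA of mouse embryonic stem cells (ESC) and embryoid bodies (EB) was fragmented and immunoprecipitated with an anti-5hmC antibody, and the precipitate (IP) was sequenced beside an input. The 13 IP libraries fell into WT ESC, TKO ESC (genotype Tet1-Tet2-Tet3-KO) and WT EB with 3 replicates each, and Tet2-KI ESC and Tet2deltaRBD-KI ESC with 2 each. The stem cells grew with leukaemia inhibitory factor, and the embryoid bodies formed from wild-type stem cells in 4 days without it. Tet2-KI ESC carry Flag, HA and Twin-Strep tags at the end of the endogenous Tet2, and Tet2deltaRBD-KI ESC carry the same tags on a Tet2 that lacks its RNA-binding domain. The knock-in cells were picked as clones of wild-type cells, so a difference between these groups cannot be told apart from a difference between clones. Nothing in the labels says whether replicates came from separate cultures. Peak lists do not measure expression, so neither the cell types nor the loss of Tet1, Tet2 and Tet3 could be checked against marker genes.

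The lists held between 498 and 10383 peaks, and 56538 in all. TKO ESC replicate 1 with 964 peaks and WT EB replicate 1 with 498 were the shortest, and neither held a peak in a ribosomal protein gene. Sample descriptions gave a prefix of 1608 to replicate 1 of WT ESC and TKO ESC, of 1610 to WT EB replicate 1 and of 1703 to replicates 2 and 3 of these groups, while the knock-in libraries had none. The knock-in lists give positions only. The read depth is unknown, and a gene without a peak is one in which no peak passed the authors' threshold, not one shown to lack 5hmC.

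Sequences are shown for 2 kinds of place that held peaks in several libraries, with 3 examples of each, because the results below turn on them. Peaks also lay elsewhere, such as in the 3′ UTR of Rpl15 or deep in introns. Coordinates are those of mm9, and each sequence is read 5′ to 3′ on the strand of the gene. The first examples lay inside the gene, at or beside a coding exon. Capitals mark bases of the coding sequence and lower case marks intron. The Rpl4 interval (chr9:64026082-64026248, + strand) is the one shared by most libraries and is shown up to the end of its coding bases. The Rpl5 interval (chr5:108336811-108337010, + strand) crosses the junction of an intron and a coding exon. The Rpl13a interval (chr7:52381338-52381537, - strand) spans a short intron between coding exons.
Rpl4: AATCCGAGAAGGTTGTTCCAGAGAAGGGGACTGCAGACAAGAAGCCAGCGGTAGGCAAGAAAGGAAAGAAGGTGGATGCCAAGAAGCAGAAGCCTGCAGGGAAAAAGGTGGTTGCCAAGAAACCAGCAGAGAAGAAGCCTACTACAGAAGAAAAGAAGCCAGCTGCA
Rpl5: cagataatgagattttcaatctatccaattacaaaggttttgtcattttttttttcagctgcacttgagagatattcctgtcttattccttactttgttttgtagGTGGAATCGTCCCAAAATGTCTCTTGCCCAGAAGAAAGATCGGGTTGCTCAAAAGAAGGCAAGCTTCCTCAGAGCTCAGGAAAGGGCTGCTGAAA
Rpl13a: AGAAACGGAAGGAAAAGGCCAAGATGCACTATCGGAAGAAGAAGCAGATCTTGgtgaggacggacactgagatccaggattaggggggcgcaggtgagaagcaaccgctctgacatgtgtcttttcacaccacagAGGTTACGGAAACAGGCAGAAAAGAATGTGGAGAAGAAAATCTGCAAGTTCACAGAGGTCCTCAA

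The other examples lay close to the annotated start of the gene. Here capitals mark every CG dinucleotide. The Rpl22 interval (chr4:151700064-151700263, + strand) held 24 of them and the Rpl19 interval (chr11:97888354-97888553, + strand) held 26, and both lie within introns. The Rpl31 interval (chr1:39425107-39425306, + strand), also intronic, held 16. The Rpl5 interval above held 2.
Rpl22: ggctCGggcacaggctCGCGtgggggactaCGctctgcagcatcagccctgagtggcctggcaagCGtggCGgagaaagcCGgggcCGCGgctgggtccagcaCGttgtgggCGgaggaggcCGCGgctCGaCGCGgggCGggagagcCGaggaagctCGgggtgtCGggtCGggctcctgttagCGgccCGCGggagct
Rpl19: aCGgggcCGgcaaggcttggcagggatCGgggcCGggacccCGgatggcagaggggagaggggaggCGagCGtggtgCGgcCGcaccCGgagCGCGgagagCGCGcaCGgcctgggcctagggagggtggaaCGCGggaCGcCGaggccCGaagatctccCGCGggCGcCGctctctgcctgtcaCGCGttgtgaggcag
Rpl31: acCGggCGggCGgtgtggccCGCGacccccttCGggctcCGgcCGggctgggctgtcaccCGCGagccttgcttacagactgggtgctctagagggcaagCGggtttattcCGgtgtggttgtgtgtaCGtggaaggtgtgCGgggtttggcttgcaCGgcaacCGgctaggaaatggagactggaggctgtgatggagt

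The share of ribosomal protein genes with a peak was highest in the knock-in lists. In WT ESC, 5, 7 and 10 genes held a peak in replicates 1, 2 and 3. In TKO ESC the numbers were 0, 6 and 3, and in WT EB 0, 3 and 5. In Tet2-KI ESC, 22 genes held a peak in each replicate, and in Tet2deltaRBD-KI ESC 17 and 24 did. Every knock-in library thus stood above every library of the other groups. The knock-in libraries differ from the others in more than genotype, since they carry no description prefix and their lists hold no fold enrichment.

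Set beside all coding genes library by library, the ribosomal protein genes lay below the background in the first 3 groups and above it in the knock-in groups. In WT ESC, 6.17%, 8.64% and 12.3% of ribosomal protein genes held a peak, against 8.91%, 13.8% and 12.6% of all coding genes. In TKO ESC the shares were 0%, 7.41% and 3.70% against 2.61%, 8.36% and 7.14%, and in WT EB 0%, 3.70% and 6.17% against 1.84%, 3.87% and 6.66%. These 9 libraries all lay below the background of all coding genes. In Tet2-KI ESC the share was 27.2% in both replicates, against 18.7% and 13.8%. In Tet2deltaRBD-KI ESC it was 21.0% and 29.6%, against 11.8% and 10.4%.

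Length bears on these shares, since a long gene offers more room for a summit. The median span of the ribosomal protein genes was 3243 bp against 15420.5 bp for all coding genes. Among the 15922 coding genes within the members' range of spans, from 849 to 42639 bp, the share with a peak was 5.19% to 7.69% in WT ESC libraries and 7.70% to 12.4% in knock-in libraries. In replicates 2 and 3 it was 4.43% and 3.86% in TKO ESC and 2.34% and 4.18% in WT EB, below the share of ribosomal protein genes in all of these but TKO ESC replicate 3. Between the quartiles of the members' spans, 2523 to 4686 bp, 22 of 41 ribosomal protein genes (53.7%) held a peak in some library, against 198 of 1782 other coding genes (11.1%). In WT ESC these shares were 22.0% and 4.26%, in TKO ESC 4.88% and 2.41% and in WT EB 2.44% and 1.85%. In Tet2-KI ESC they were 36.6% and 6.12%, and in Tet2deltaRBD-KI ESC 43.9% and 6.00%. At like length, the share of ribosomal protein genes with a peak was above that of other genes in WT ESC and in both knock-in groups. It was also above in TKO ESC (4.88% against 2.41%) and WT EB (2.44% against 1.85%), but there it rested on 2 genes and on 1. Expression was not measured here, so its part in this was not tested.

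**Figure D1:**
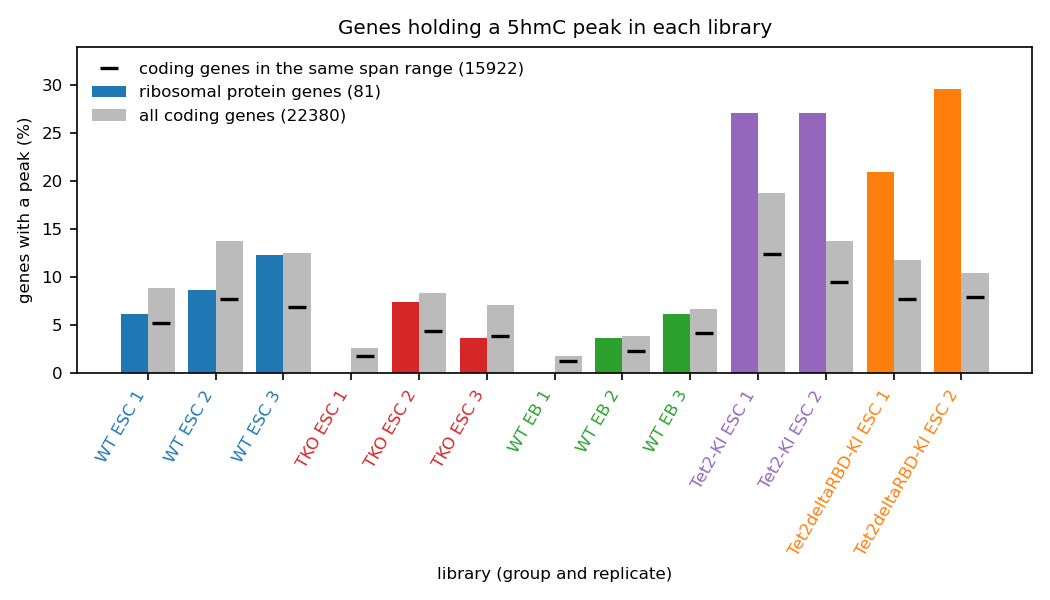
Percent of genes with at least 1 peak summit in each library (bars, vertical axis from 0), for the 81 ribosomal protein genes (coloured by group) and all 22380 coding genes (grey), with dashes for the 15922 coding genes in the same span range. The coloured bars stand above the grey ones in the 4 knock-in libraries, from 21.0% to 29.6%, and lie below them in the other 9.

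No ribosomal protein gene held a peak in every replicate of WT ESC, TKO ESC or WT EB. The same rule called 4.99%, 1.34% and 0.626% of all coding genes in these groups. With at least 1 library as the rule, WT ESC had 18 ribosomal protein genes, 22.2% and thus above the background of 19.7%. TKO ESC had 7 (8.64%, background 11.4%) and WT EB had 5 (6.17%, background 8.32%). With at least 2 libraries, WT ESC had Rpl4, Rpl5, Rpl13a and Rpl23 (4 genes, background 10.6%). TKO ESC had Rpl4 and Rps24 (2 genes, 5.36%), and WT EB had Rpl4, Rpl5 and Rpl15 (3 genes, 3.42%). Among coding genes in the members' range of spans the same rule called 5.31%, 2.75% and 2.05%, against 4.94%, 2.47% and 3.70% of the ribosomal protein genes. Without replicate 1, WT ESC had Rpl4, Rpl5 and Rpl23 in both libraries, and without replicate 2 it had Rpl13a. The share of all coding genes with a replicate left out was not counted.

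Both knock-in groups held replicated genes. In Tet2-KI ESC 13 genes had a peak in both replicates (background 10.3%): Rpl4, Rpl5, Rpl13a, Rpl15, Rpl19, Rpl22, Rpl23, Rpl24, Rpl26, Rpl31, Rps2, Rps7 and Rps15a. In Tet2deltaRBD-KI ESC 10 did (background 5.91%), among them Rpl13a, Rpl17, Rpl19, Rpl22, Rpl23, Rpl38, Rps2, Rps14 and Rps19. Rpl13a, Rpl19, Rpl22, Rpl23 and Rps2 stood in both lists. How many of all coding genes stood in both was not counted. In at least 1 library, each group had 31 genes (background 22.3% for Tet2-KI ESC and 16.3% for Tet2deltaRBD-KI ESC).

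All 41 genes with a peak were in a knock-in list. Of these, 21 were also in a list of WT ESC, TKO ESC or WT EB (25.9% of the 81, background 17.4%), and 20 were in knock-in lists alone (24.7%, background 9.05%). None was in the other lists alone, where 5.75% of all coding genes were. Rpl4, Rpl5 and Rpl15 were in all 5 groups. Of the 41, 13 were seen in 1 library, 20 in 2 to 4 and 8 in 5 or more. The same was not counted over all coding genes, so neither these classes nor the genes in all groups have a background here. By subunit, 26 of 49 large subunit genes and 15 of 32 small subunit genes held a peak, both above the share of all coding genes (32.2%). Of the 3 genes of the ribosomal stalk, which recruits translation factors to the ribosome, Rplp0 had 1 peak and Rplp1 and Rplp2 had none.

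**Figure D2:**
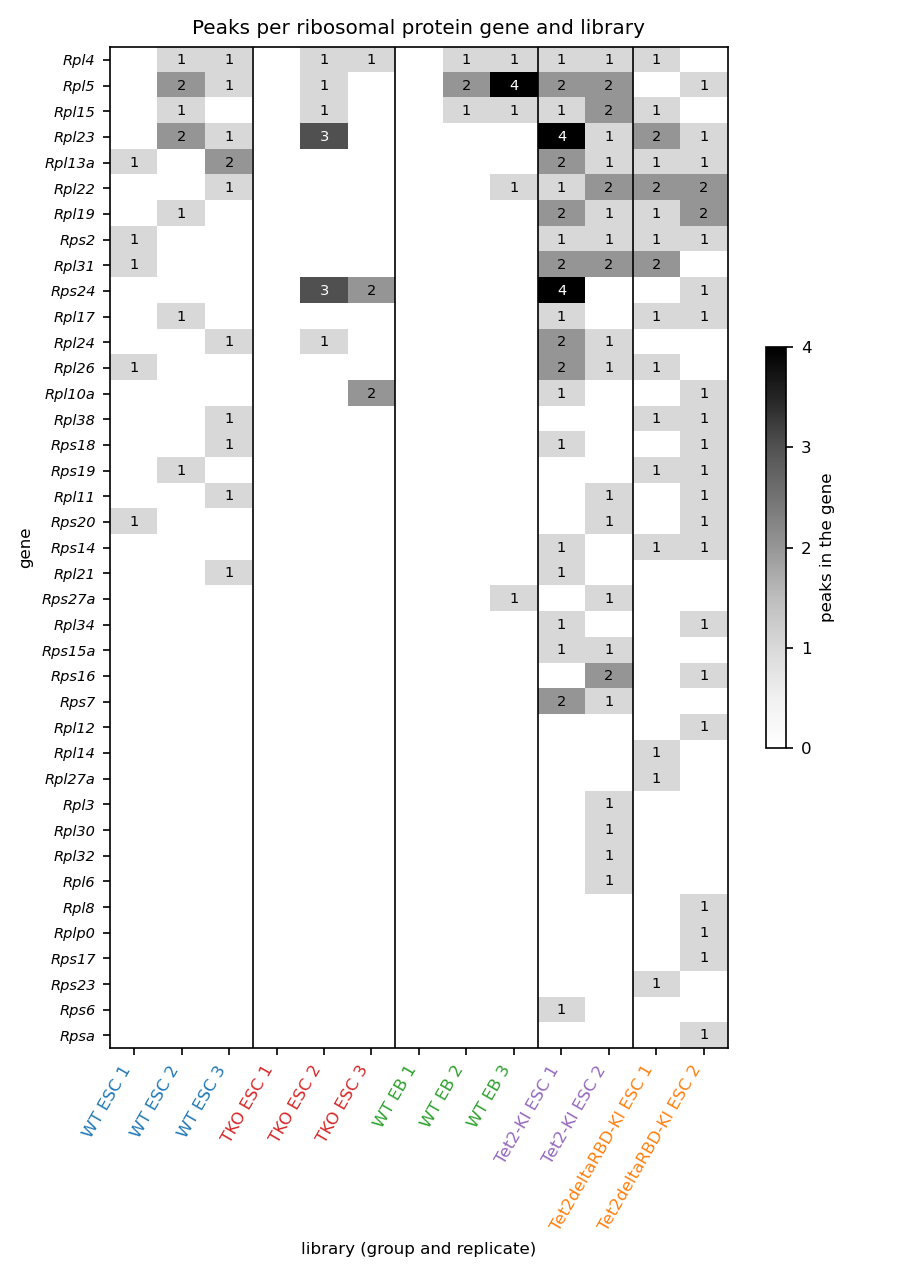
Number of peaks in each of 39 of the 41 ribosomal protein genes that held any (rows, ordered by the number of libraries) in each of the 13 libraries (columns, vertical lines between groups), with darker cells for more peaks. Rpl4 fills 9 columns, TKO ESC replicate 1 and WT EB replicate 1 are empty, and the lower rows are filled in the knock-in columns alone.

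Between groups, the presence of peaks turned on few genes. No ribosomal protein gene was in every library of WT ESC and none of TKO ESC (background 1.05%), nor the reverse (0.0179%). None was in every WT ESC library and no WT EB library (2.06%), nor the reverse (0.00894%). With at least 2 libraries of one group and none of the other, Rpl13a was in WT ESC and not in TKO ESC (1 gene, background 3.72%), and Rpl13a and Rpl23 were in WT ESC and not in WT EB (2 genes, 5.77%). Rps24 was the reverse case, with peaks in TKO ESC replicates 2 and 3 and in no WT ESC library (1 gene, 0.411%).

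Between the knock-in groups, Rpl24, Rps7 and Rps15a had a peak in both Tet2-KI ESC replicates and in no Tet2deltaRBD-KI ESC replicate (3 genes, background 2.45%). Rpl38 and Rps19 were the reverse (2 genes, background 0.492%). The Rpl38 region has 3 near-identical copies elsewhere in the genome, and their part in its peaks was not tested. Rps7 had peaks at 2009 to 2026 bp from its start in both Tet2-KI ESC replicates, whose intervals overlapped, and a further one in replicate 1. The peaks of Rps15a in the 2 replicates lay apart, at 3459 and 5016 bp, and so did those of Rpl24. These 3 genes code for proteins of both subunits, Rpl24 for the large and Rps7 and Rps15a for the small. With 2 libraries a group, no test of these differences was made.

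Rpl4, a large subunit protein at the wall of the exit tunnel, held a peak in the most libraries, 9 of 13. All its peaks fell in 1 region of coding sequence near the 3′ end of the gene (chr9:64026076-64026294), the one printed above. The fold enrichment of IP over input at the summit was 5.49 and 5.40 in WT ESC replicates 2 and 3. It was 5.29 and 4.22 in TKO ESC replicates 2 and 3, and 5.45 and 2.88 in WT EB replicates 2 and 3. Both TKO ESC values lay below both WT ESC values, and the WT EB values overlapped both groups. Over the 3 groups together the mean was 4.79 ± 1.05 (SD, n = 6 libraries), a spread over groups and replicates alike. In all 3 groups replicate 1 had no peak there, and among the knock-in libraries Tet2deltaRBD-KI ESC replicate 2 had none. A near-identical copy of the region stands elsewhere in the genome, and its part in the reads of the peak was not tested.

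Rpl5, whose protein carries 5S rRNA into the large subunit, had peaks in 8 libraries and the most peaks of any member, 15. The region over the intron and exon junction printed above (chr5:108336806-108337031) was in 6 libraries, with fold enrichments of 5.84 in WT ESC replicate 2, 13.3 in TKO ESC replicate 2, and 5.60 and 11.4 in WT EB replicates 2 and 3. Within WT EB alone the values thus ranged about as widely as over the WT ESC and TKO ESC libraries, each of which gave a single value. An upstream region (chr5:108332817-108333041) gave lower values, 2.95 and 3.43 in WT ESC replicates 2 and 3 and 4.35 and 3.72 in WT EB replicates 2 and 3. The WT EB values were both above the WT ESC values there, and no TKO ESC library had a peak. WT EB replicate 3 alone added a peak of 3.39 whose interval overlapped the small nucleolar RNA Snord21 and one of 9.58 next to it.

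Rpl15, of the large subunit, had peaks in 7 libraries, 6 of them in its 3′ UTR (chr14:19101027-19101282). Fold enrichment there was 6.65 in WT ESC replicate 2, 12.2 in TKO ESC replicate 2, and 7.78 and 16.5 in WT EB replicates 2 and 3. The last of these was the highest value of any ribosomal protein gene peak. Over these groups together the mean was 10.8 ± 4.50 (SD, n = 4 libraries), a spread over groups and replicates alike. The remaining peaks of Rpl15, in Tet2-KI ESC replicate 2 and Tet2deltaRBD-KI ESC replicate 1, lay 666 and 688 bp from the start.

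Rpl23, also of the large subunit, had peaks in 7 libraries and in 3 places. Toward its 3′ end (chr11:97639414-97639839), WT ESC replicate 2 gave 2.96 and 4.42, WT ESC replicate 3 gave 5.05 and TKO ESC replicate 2 gave 9.87 and 9.30. The TKO ESC library was higher than both WT ESC libraries, but it was a single library. Close to the start, all 4 knock-in libraries had a peak, at 197 to 226 bp, and no other library did.

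Rpl13a, a large subunit protein that is also known from a translation silencing complex, had peaks in 6 libraries, all WT ESC or knock-in. The region printed above held peaks of WT ESC replicate 3 and 3 knock-in libraries, and the fold enrichment of the 2 WT ESC replicate 3 peaks in it was 3.85 and 3.43. A region rich in CG, 7799 to 7807 bp inside the outermost annotated start, gave 10.6 in WT ESC replicate 1 and was also in 1 library of each knock-in group. The annotated span of Rpl13a is 10860 bp, longer than most members, and so are those of Rpl24 (42639 bp), Rpl11 (25164 bp) and Rps15a (11809 bp).

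The remaining leading genes were each seen in at least 2 knock-in libraries. Rpl22 (6 libraries) and Rpl19 (5 libraries) are described with the gene starts below. Rps2, of the small subunit, had 1 peak in coding sequence (chr17:24857276-24857496) in all 4 knock-in libraries and in WT ESC replicate 1, with a fold enrichment of 5.00. That region has 16 near-identical copies in the genome. Rps24, of the small subunit, had 10 peaks in 4 libraries. Its region near the 3′ end (chr14:25314844-25315070) gave 6.65 and 6.89 in TKO ESC replicates 2 and 3, and a second region (chr14:25312499-25312713), with 6 copies in the genome, gave 4.52 and 2.71. Both regions were also in Tet2-KI ESC replicate 1. Rpl17, Rpl24, Rpl26 and Rpl31 followed with 4 libraries each.

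Merged where intervals overlapped, the 160 peaks made 69 regions. Of these, 35 were seen in 1 library, 28 in 2 to 4 and 6 in 5 or more, and the 6 lay in Rpl4, Rpl15, Rpl5 (both regions above), Rps2 and Rpl22. In all 4 knock-in libraries together there were 4 regions, in Rps2, Rpl22, Rpl19 and Rpl23. A region was in both Tet2-KI ESC replicates in 10 cases and in both Tet2deltaRBD-KI ESC replicates in 9. A near-identical copy elsewhere in the genome, of at least 50 bp at 95% identity or more over the summit, was found for 7 regions, all among the 15 with a summit in an exon and none among the 54 intronic ones.

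The peaks lay mostly in introns, by the exons of coding transcripts. Of 160 summits, 124 were in an intron of the coding transcripts (77.5%, against 67.9% of peaks in all coding genes), 23 in coding sequence, 7 in a 3′ UTR, 5 in a 5′ UTR and 1 in another exon. The intronic share was 83.9% against 69.8% in Tet2-KI ESC and 78.3% against 61.4% in Tet2deltaRBD-KI ESC. It was nearer the background in WT ESC (72.0% against 74.2%), TKO ESC (73.3% against 68.4%) and WT EB (58.3% against 55.7%). Between the quartiles of the members' spans, 22.6% of ribosomal protein gene peaks had an exonic summit against 69.2% in the other coding genes, though both such peaks of WT EB were exonic. The mean exonic share per library was 29.8% ± 9.16 in WT ESC (SD, n = 3). It was 30.0% in TKO ESC and 43.8% in WT EB, each over the 2 libraries that had such peaks, 16.0% in Tet2-KI ESC and 22.7% in Tet2deltaRBD-KI ESC. For peaks in all coding genes the means over all libraries of these groups were 26.8%, 35.9%, 44.4%, 30.1% and 39.9%. Exons made up 26.9% of the length of the ribosomal protein genes and 6.67% of that of all coding genes.

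This reading depended on what counted as an exon. When exons of all annotated transcripts were used, retained introns included, 68 of the 160 summits (42.5%) were exonic, against 34.2% over all coding genes, so that over all libraries together the ribosomal protein genes lay above the background and no longer below it. In Tet2deltaRBD-KI ESC they stayed just below it (39.1% against 40.6%). In WT ESC the share went from 28.0% to 56.0% of 25 peaks. The 200 bp interval touched an exon in 104 of 160 peaks (65.0%), against 46.9% over all coding genes, and in Tet2deltaRBD-KI ESC 50.0% against 50.7%.

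Peaks near the start of the gene were most frequent in Tet2deltaRBD-KI ESC. A summit within 500 bp of the outermost annotated start was found for 6 of 25 peaks of these genes in WT ESC (24.0%), 1 of 15 in TKO ESC (6.67%) and 0 of 12 in WT EB, and for 19 of 62 in Tet2-KI ESC (30.6%) and 31 of 46 in Tet2deltaRBD-KI ESC (67.4%). For all coding genes the shares were 7.20%, 4.13%, 4.90%, 7.59% and 21.9%. The limit of 500 bp was chosen after the positions had been seen. The first 500 bp make up 11.3% of the length of the ribosomal protein genes and 1.10% of that of all coding genes.

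Library by library, the share near the start was 60.0%, 11.1% and 18.2% in WT ESC, and 0 of 10 and 1 of 5 peaks in TKO ESC replicates 2 and 3. It was 28.6% and 33.3% in Tet2-KI ESC and 60.0% and 73.1% in Tet2deltaRBD-KI ESC. The knock-in groups did not overlap in this share. Over all peaks in coding genes they did not overlap either, with 6.90% and 8.70% in Tet2-KI ESC and 12.5% and 34.3% in Tet2deltaRBD-KI ESC. For the ribosomal protein genes, Tet2-KI ESC lay within the range of WT ESC. There WT ESC replicate 1, with 3 of 5 peaks, reached the level of Tet2deltaRBD-KI ESC. In the background, Tet2deltaRBD-KI ESC replicate 2 stood apart, with 34.3% of all peaks in coding genes near a start, against 12.5% in replicate 1 and 2.33% to 13.5% in the other 11 libraries. Among other coding genes between the members' quartile spans, the share was 27.2% in WT ESC, 27.6% in Tet2-KI ESC and 48.3% in Tet2deltaRBD-KI ESC, and for the ribosomal protein genes of those spans it was 44.4%, 34.8% and 60.0%. In TKO ESC it was 24.7% for the other genes and 1 of 3 peaks for the ribosomal protein genes, and in WT EB 27.6% and 0 of 2 peaks. For Tet2-KI ESC and Tet2deltaRBD-KI ESC the gap was smaller among genes of like length than against all coding genes, and for WT ESC it was about the same.

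By gene, 14 members had a peak near the start in Tet2-KI ESC (background 3.71%) and 21 in Tet2deltaRBD-KI ESC (5.54%), against 6 of WT ESC (2.83%), 1 of TKO ESC (1.13%) and 0 of WT EB (1.07%). In Tet2deltaRBD-KI ESC these included Rpl5, Rpl11, Rpl12, Rpl14, Rpl17, Rpl19, Rpl22, Rpl23, Rpl26, Rpl34, Rpl38, Rplp0, Rps14, Rps16, Rps19, Rps20, Rps23, Rps24 and Rpsa. The WT ESC genes were Rpl17, Rpl22, Rpl26, Rpl31, Rpl38 and Rps20, and the TKO ESC gene was Rpl10a.

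Rpl22, a large subunit protein that can be lost without stopping protein synthesis, and Rpl19, of the same subunit, had summits at like positions in several libraries. In Rpl22, 5 libraries had a summit between 274 and 333 bp from the start, namely all 4 knock-in libraries and WT ESC replicate 3, where fold enrichment was 4.77. Tet2deltaRBD-KI ESC replicates 1 and 2 had a further Rpl22 summit, at 493 and 477 bp. In Rpl19, the 4 knock-in libraries had a summit at 405 to 447 bp, and no other library had one near the start. Tet2deltaRBD-KI ESC replicate 2 and Tet2-KI ESC replicate 1 had a further Rpl19 summit, at 559 and 594 bp. WT ESC replicate 2 had its Rpl19 peak farther in, at 2820 bp, with a fold enrichment of 9.38. In Rpl31, of the large subunit, Tet2-KI ESC replicate 1 and WT ESC replicate 1 shared a summit at 220 and 228 bp, the latter with a fold enrichment of 7.32. Tet2-KI ESC replicate 2 and Tet2deltaRBD-KI ESC replicate 1 had theirs at 510 and 511 bp, just outside the limit. Rps19, of the small subunit and known for its mutation in Diamond-Blackfan anaemia, had a 5′ UTR summit at 413 and 417 bp in both Tet2deltaRBD-KI ESC replicates, whereas its WT ESC replicate 2 peak lay at 2022 bp. In Rpl38, of the large subunit, the Tet2deltaRBD-KI ESC summits were at 306 and 412 bp and that of WT ESC replicate 3 at 432 bp, with a fold enrichment of 5.30.

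**Figure D3:**
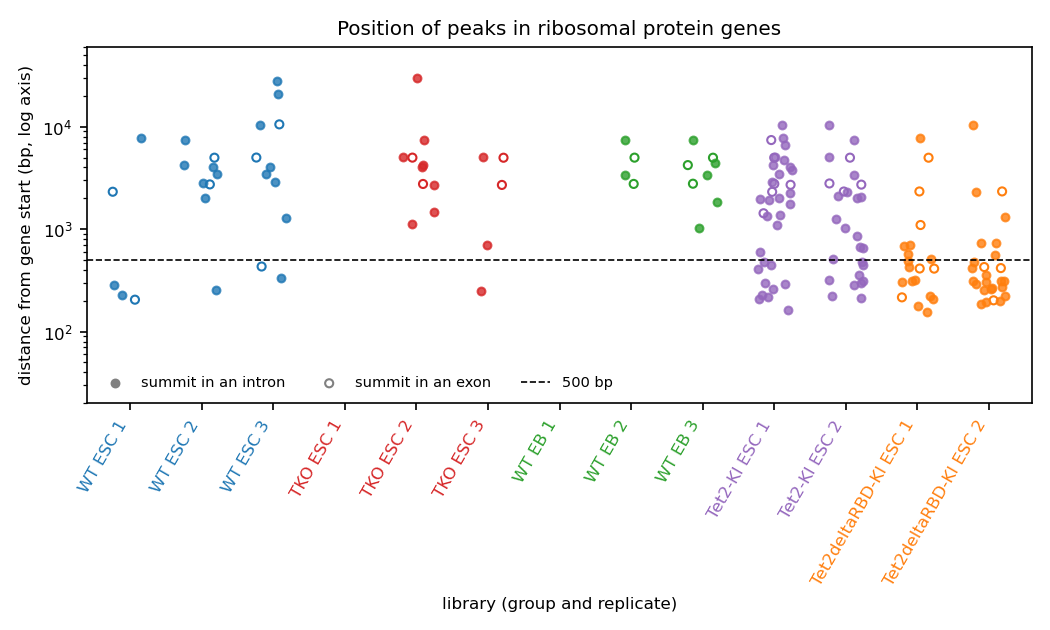
Distance of each summit from the outermost annotated start of its ribosomal protein gene (bp, log axis) in each library, with filled points for intronic and open points for exonic summits and a dashed line at 500 bp. Of the Tet2deltaRBD-KI ESC points 31 of 46 lie below the line, against 19 of 62 for Tet2-KI ESC and 0 of 12 for WT EB.

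Base composition followed position. Peaks of ribosomal protein genes in Tet2deltaRBD-KI ESC had a median GC content of 70.0% and a median of 20.5 CG dinucleotides in 200 bp, against 52.0% and 4 for all peaks in coding genes of that group. In WT ESC the median GC content was 47.5% against 47.0%. Near the start, the median GC content was 73.2% to 73.5% in Tet2deltaRBD-KI ESC for the ribosomal protein genes and 71.5% to 73.5% for all coding genes, so that peaks at starts were of like composition in both. GC content moves with the sequence of gene starts, and its part in the number of peaks was not tested.

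Other features of the intervals differed from the background in both directions. No member peak lay on a tandem repeat, against 7.45% of all peaks in coding genes. The median pyrimidine content was 45.0% against 41.0%, and it was the higher in each of the 11 libraries with a peak in these genes. The motif TCCTC on the strand of the gene was in 25 of 160 intervals (15.6%), against 13.3% over all coding genes. In WT ESC its share was 24.0% against 13.4%, and in TKO ESC 6.67% against 10.9%. Its reverse complement GAGGA was in 36.9% against 43.8%. Small nucleolar RNAs are annotated within 30 of the 81 genes, and 18 of these 30 held a peak, as did 23 of the other 51 (background 32.2%). An interval overlapped a small nucleolar RNA in 4 of 160 cases (2.50%, against 0.0898% of all peaks in coding genes), the Rpl5 peak over Snord21 among them.

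Peaks in ribosomal protein genes were of lower fold enrichment than other peaks of the same library. In WT ESC their median was 5.00, 4.59 and 4.77 in replicates 1, 2 and 3, against 6.24, 5.84 and 5.66 for all peaks in coding genes. In TKO ESC replicates 2 and 3 it was 6.03 and 6.23 against 7.28 and 6.68, and in WT EB replicates 2 and 3 it was 5.52 and 4.82 against 7.37 and 7.07. The member median was the lower in all 7 libraries. The ratio of the medians was 0.809 ± 0.0300 in WT ESC (SD, n = 3), 0.881 for TKO ESC and 0.715 for WT EB. With exonic peaks alone the WT ESC ratio was 0.997.

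**Figure D4:**
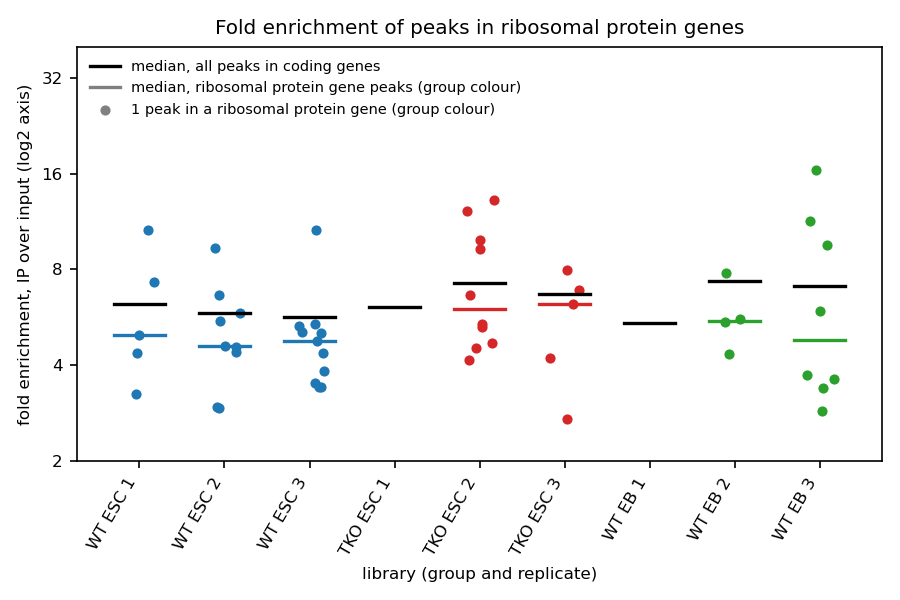
Fold enrichment of IP over input at the summit (log2 axis) of each ribosomal protein gene peak (points) in the 9 libraries whose lists give it, with the median of these peaks (coloured line) and of all peaks in coding genes (black line). The coloured line lies below the black one in each of the 7 libraries that hold such peaks.

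A test of fold enrichment between groups needed a region present in all 6 libraries compared, and no region of a ribosomal protein gene met this. Over all 284 regions compared between TKO ESC and WT ESC and all 94 between WT EB and WT ESC, limma called 0 at a Benjamini-Hochberg adjusted p below 0.05, with 9 and 13 at an unadjusted p below 0.05. This fit had no replicate block. With the block, TKO ESC against WT ESC again gave 0, with 17 at an unadjusted p below 0.05, and WT EB against WT ESC gave 6, with 28 at an unadjusted p below 0.05, none in a ribosomal protein gene. When only the libraries with the prefix 1703 were used, 2 a group, Rpl4 and Rpl5 could be fitted. For Rpl4 the log2 difference was -0.21 for TKO ESC minus WT ESC (limma adjusted p = 0.835) and -0.46 for WT EB minus WT ESC (limma adjusted p = 0.563). For the upstream Rpl5 region it was 0.34 for WT EB minus WT ESC (limma adjusted p = 0.612). None of these differences passed the threshold, which does not show that the values were alike.

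Other genes of translation were read in the same way. Fau, which encodes a small subunit protein fused to a ubiquitin-like sequence, had a peak in 1 Tet2deltaRBD-KI ESC library, and Gnb2l1, the ribosomal scaffold protein also called RACK1, had none. Of 76 mitochondrial ribosomal protein genes, whose products work in a separate ribosome, 21 held a peak in some library (27.6%, against 32.2% of all coding genes), led by Mrps9 in 11 libraries and Mrpl1 and Mrps27 in 9. Of these, 3 had a peak in every WT ESC replicate and 1 in every TKO ESC replicate, near or below the background of 4.99% and 1.34%, and 12 of their 92 peaks lay near the start. Of 50 ribosome biogenesis genes 40 held a peak (80.0%, against the same 32.2%), 11 of them in every WT ESC replicate (background 4.99%). Of the 611 peaks of this list, 5.40% lay near the start (background 8.81%). Ncl (nucleolin), Ftsj3 and Wdr43 had a peak in all 13 libraries. Of 8 translation elongation factor genes 6 held a peak (background 32.2%), most often Eef1b2, in 7 libraries. These lists have longer genes, with median spans of 7733.5 bp for the mitochondrial ribosomal proteins, 14211 bp for ribosome biogenesis and 11071 bp for the elongation factors.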

How the data were processed

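RNA 5hmC was measured by hMeRIP-seq in 13 IP libraries. Reads of low complexity and those matching rRNA or tRNA (Bowtie2) were discarded by the authors, who trimmed the remainder with Trimmomatic and aligned it to mm9 and RefSeq transcripts with STAR. MACS2 then found peaks for every IP with the matching input as control, at a q-value below 0.05 per the methods of the study. Tool versions and the treatment of reads that map to several places are not given in the sources used here. The deposited lists hold 200 bp intervals around summits, and in 9 libraries the fold enrichment of IP over input, a ratio computed by the authors' peak caller. Inputs were not analysed here, and a few genes are not reported here.

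Groups came from the sample titles. The members and lists were chosen with earlier results of these data known. Summits (interval midpoints) were assigned by position, not strand, to genes of GENCODE M1 on NCBIM37 (the mm9 assembly). 99.71% of intervals lay on its chromosomes. Exons were those of coding transcripts. Intervals overlapping by at least 1 bp were merged into regions. No more than 1.97% of intervals were identical between any 2 libraries. Copies were searched with BLAST 2.17.0. Named were the 12 genes with a peak in most libraries, those in all libraries of one group and none of another, and the 5 regions of highest mean fold enrichment seen in at least 3 libraries. Log2 fold enrichment was tested with limma 3.58.1 (R 4.3.3), and the code was tested on simulated data. Over the regions fitted, deviations of same-numbered libraries correlated at 0.326, 0.110 and 0.113 between WT ESC and TKO ESC (replicates 1, 2 and 3). No correlation of differently numbered libraries was computed to set beside these. The description prefix matches replicate 1 of the 2 groups, but replicates 2 and 3 of both groups share a single prefix. The prefix cannot tell which of those libraries belong together, so their pairing is uncertain. The reported fit has no replicate block, and the blocked fit is an alternative. Python 3.11.15, pandas 2.3.3, numpy 2.4.6, pysam 0.24.0, samtools 1.23.1 and matplotlib 3.10.9 were used. Sequence was read from NCBIM37. Alternatives were the replicate rule, overlap in place of summits, fold enrichment limits, list length, exon sets, batch prefix, distance limits and leaving out each library.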

Additional observations from a re-analysis of the deposited data

How the results depend on the processing

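Of 181 alternative values for 26 results, 136 stayed close to the reported value and 45 moved. Genes with a peak in every replicate numbered 0 in each group of 3 replicates (WT ESC, TKO ESC, then WT EB), but 4, 2 and 3 with at least 2 of 3 replicates and 3, 2 and 3 with the 1703 libraries only. Leaving out 1 library gave 0 to 3 in WT ESC, 0 to 2 in TKO ESC and 0 to 3 in WT EB, the highest each time without replicate 1. For these groups, shares of all coding genes were not counted with the 1703 libraries only or with 1 library left out. In Tet2-KI ESC and Tet2deltaRBD-KI ESC the 13 and 10 genes became 31 and 31 with at least 1 of 2 replicates, 22 when either Tet2-KI ESC library was left out, and 24 or 17 without Tet2deltaRBD-KI ESC replicate 1 or 2. Genes in all libraries of one group and none of the other numbered 1 for TKO ESC against WT ESC and 1 for WT ESC against WT EB with the 1703 libraries only. Leaving out 1 library gave 0 to 1 for WT ESC against TKO ESC, TKO ESC against WT ESC and WT ESC against WT EB, 4 to 8 in place of 3 for Tet2-KI ESC against Tet2deltaRBD-KI ESC and 3 to 7 in place of 2 for the reverse.

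The exonic share of WT ESC, TKO ESC, WT EB, Tet2-KI ESC and Tet2deltaRBD-KI ESC became 60.3%, 55.0%, 62.5%, 35.2% and 39.8% with exons of all transcripts, and 80.5%, 85.0%, 93.8%, 59.8% and 50.6% when the interval had to touch an exon. The ratio of median fold enrichments in WT ESC became 0.997 with exonic peaks only. The share near the start, 31.0% in Tet2-KI ESC and 66.5% in Tet2deltaRBD-KI ESC as means of libraries, became 9.42% and 22.1% within 250 bp, 39.8% and 82.3% within 1000 bp, and 40.8% and 77.9% from the nearest start of a coding transcript, alternatives chosen after seeing the data. The causes were not tested.

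With a replicate block, limma again had 0 regions of ribosomal protein genes to test. Over all regions the block called 0 between TKO ESC and WT ESC, and 6 in place of 0 between WT EB and WT ESC, whose same-numbered libraries correlated at 0.282, 0.148 and -0.031. Replicates 2 and 3 of both groups share the prefix 1703 and replicate 1 does not share one, so the pairing is uncertain there as well. Read depth is unknown, so its part in the number of peaks, 498 in the shortest list, was not tested.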

Other observations

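Further genes named Rpl or Rps fell outside the rule on names. Among them were 59 coding genes of the annotation, 55 with a name ending in "-ps" and a number as pseudogenes have, and 3 of the 59 held a peak, against 32.2% of all coding genes. Rpl13-ps3 had 1 in WT EB replicate 3, in coding sequence, with a fold enrichment of 7.72. Rpl22l1, a paralogue of Rpl22, had 1 in an intron in Tet2-KI ESC replicate 2, at 1747 bp from its start. Rpl7l1, a paralogue of Rpl7, had 1 in Tet2-KI ESC replicate 1 and 1 in Tet2deltaRBD-KI ESC replicate 2, at 136 and 139 bp from its start.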
